A study of Homo sapiens with 12 samples.

Results

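The 84 rows described here are those whose level fell to 0.5 times the mock level or less after sodium arsenite in the human hepatoma cell line Huh-7.5. They were chosen from the count table itself. Counts were scaled to the same total in every library (CPM), rows with a count sum of at least 240 over the 6 mock libraries were kept, and of these 4793 well-counted rows the 84 with a mean arsenite CPM of at most 0.5 times the mean mock CPM were taken (1.75%). The table holds 61255 rows in all. Because the arsenite and mock levels chose the rows, their fall is given below as a description with no test.

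Whole-cell RNA was sequenced in 12 libraries after ribosomal RNA depletion with a strand-keeping kit. The libraries come from 3 derivatives of the line that express the proximity-labelling peroxidase APEX2, carrying a nuclear export signal (NES), carrying a nuclear localization signal (NLS), or fused to G3BP1. Every library, controls included, therefore comes from cells with an APEX2 transgene. Each derivative was mock treated or given 0.5 mM sodium arsenite for 45 minutes, and each of the 6 groups has 2 numbered replicates. The labels do not say whether replicates came from separate cultures, so p-values measure only the spread between these libraries, which may be technical.

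Arsenite causes oxidative stress, activates a stress kinase, blocks the start of translation and drives untranslated mRNA into stress granules, for which G3BP1 is a core scaffold. Stress of this kind also changes transcription, and the level of an RNA then depends on how fast it is made and how fast it is degraded. Introns are copied together with their gene and are removed and degraded in the nucleus, so intronic RNA usually lives for a much shorter time than the spliced mRNA. Many annotated antisense RNAs lie within such introns, on the other strand.

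Library totals ranged from 1090308 to 1461067 counts, and 3 counts, taken as the floor of a library, were worth 2.05 to 2.75 CPM. Of 14 hepatocyte markers, 9 reached at least 10 counts in a library, with summed counts of 281 to 421 in mock and 329 to 508 in arsenite libraries, and APOH was at 0 throughout. Summed counts were 0 to 4 for 5 fibroblast markers (LUM at 0), 0 to 14 for 4 endothelial markers (VWF and KDR at 0), and 24 to 32 in mock and 15 to 27 in arsenite libraries for 5 blood cell markers, 1 of which reached 30 counts. Hepatocyte genes such as the one for albumin are abundant in this line, so their low counts bear on what a row name means. How strand was handled in counting is not given in the sources used here, and a gene name below denotes a row of the table, whose counts may come from the named gene or from RNA of the opposite strand. Which of these a row holds was not tested. In bulk RNA, fewer expressing cells and less RNA per cell cannot be told apart.

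The ratio of mean arsenite to mean mock CPM ran from 0.201 to 0.497 over the 84 rows, with a median of 0.442. The median over all well-counted rows was 0.964. Only 5 rows had a ratio under 0.3, 28 were under 0.4, and 56 lay at 0.4 or above, so most sat close under the limit. Just inside it were SPDYE1 (0.495), ENSG00000286004 (0.497), ENSG00000235138 (0.497) and SPDYE8 (0.497), and just outside it were SPDYE2B (0.5002), TSHZ2 (0.501), AMIGO3 (0.505) and ENSG00000270739 (0.505). Mean mock levels of the members ran from 31.7 to 777 CPM with a median of 53.4 CPM. Together the 84 rows held 0.622% to 0.723% of the counts of a mock library and 0.260% to 0.315% of those of an arsenite library.

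**Figure D1:**
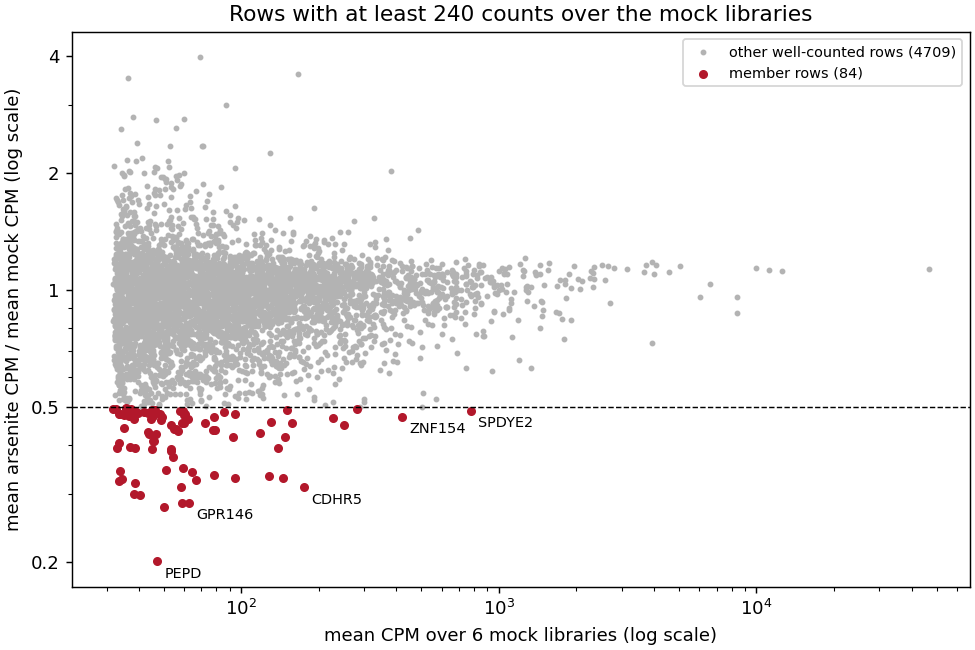
Each point is 1 of the 4793 well-counted rows, placed by its mean CPM over the 6 mock libraries (horizontal, log scale) and by its ratio of mean arsenite to mean mock CPM (vertical, log scale). The dashed line marks the ratio of 0.5, the 84 member rows below it are red, and most of them lie under 100 mock CPM, with SPDYE2 the most counted at 777 CPM and PEPD the lowest at a ratio of 0.201.

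In 76 of the 84 rows, as the rule favours, every arsenite library lay below every mock library, where 9.76% of well-counted rows did. The other 8 rows overlapped between treatments. These were VCPKMT, F11R, CEACAM1, GSTM3, TP53INP1, LINC00484, ENSG00000286004 and SPDYE8. Only the NES libraries held more than a few counts of VCPKMT and F11R. The rows were fitted by edgeR with line and treatment as additive terms, and the median log2 fold change was −1.12 for the members and −0.01 for all 13108 rows tested.

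**Figure D2:**
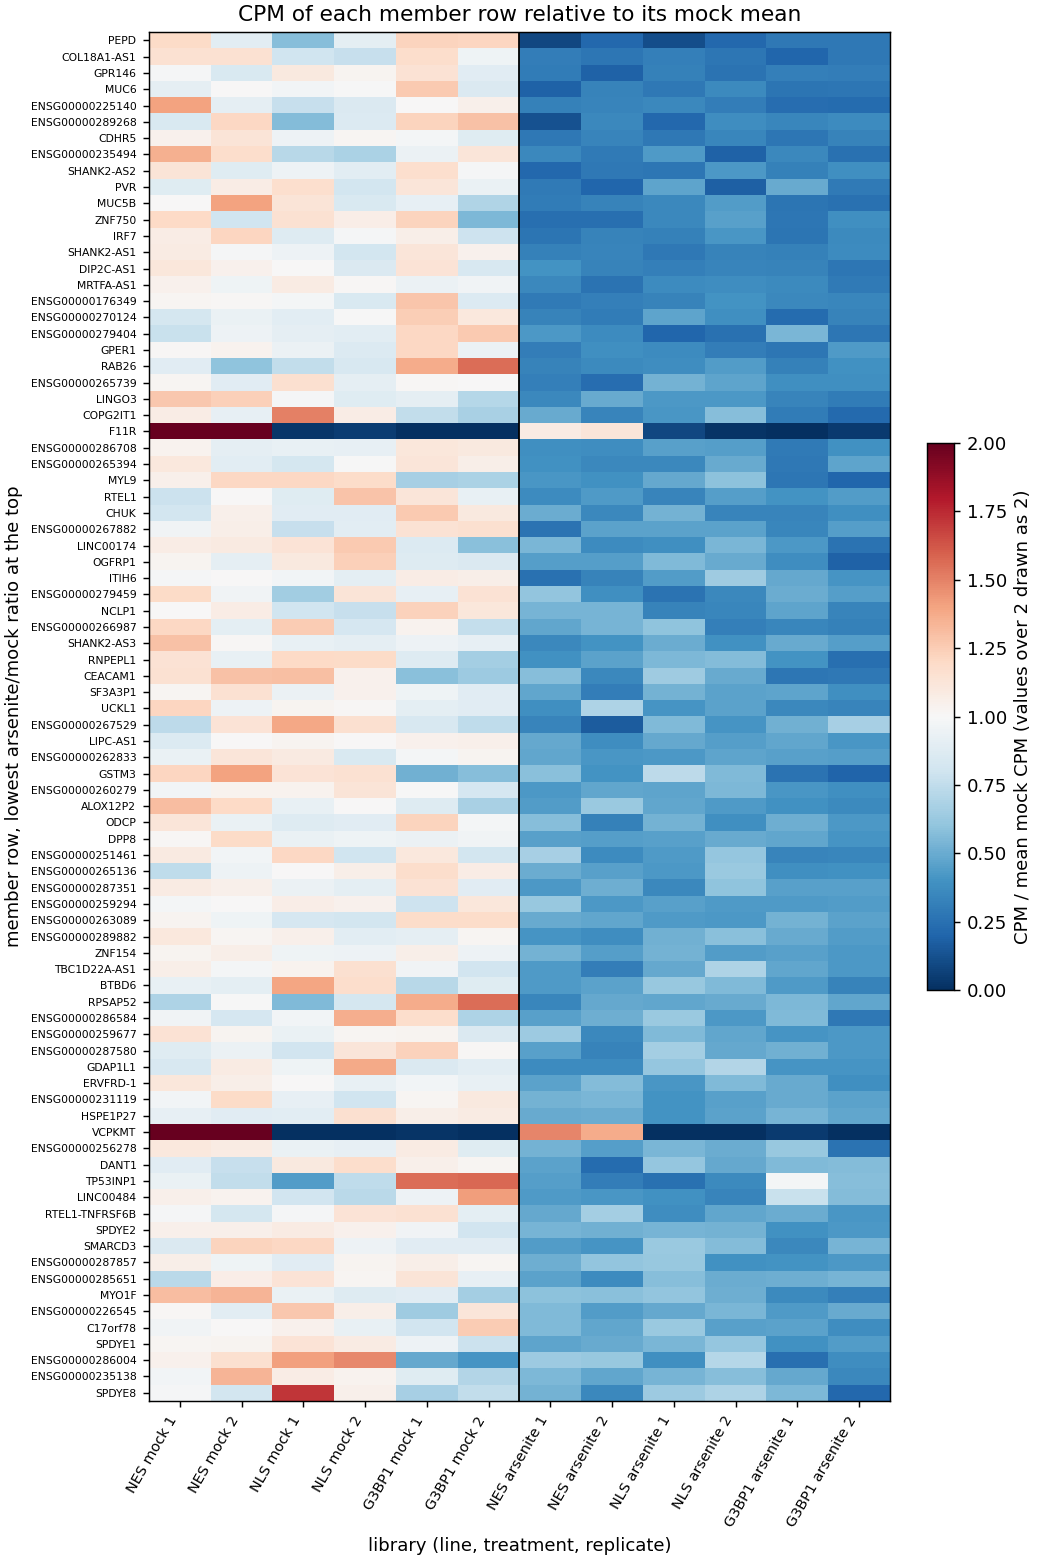
Rows are the 84 members ordered by their ratio, columns are the 12 libraries (mock left of the line, arsenite right), and colour is the CPM of the library divided by the mean mock CPM of that row, with values over 2 drawn as 2. The arsenite columns are blue in nearly all rows, and the rows VCPKMT and F11R stand out by their high NES and near-zero NLS and G3BP1 libraries.

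PEPD had the lowest ratio. It encodes prolidase, the cytosolic enzyme that splits dipeptides ending in proline and is needed to recover proline from collagen. The row (chr19:33386950-33521794, GRCh38, minus strand) had 27.1, 49.1 and 57.8 CPM as the lowest, median and highest mock library and 4.18, 10.3 and 13.4 CPM as the lowest, median and highest arsenite library. The highest arsenite library was thus well under the lowest mock library. The mean fell from 47.1 ± 12.2 to 9.47 ± 3.94 CPM (SD, n = 6 each), with ratios of 0.147, 0.224 and 0.233 for NES, NLS and G3BP1 cells. No annotated gene on the other strand overlaps an exon of PEPD, but its end is 4264 bases past the end of CEBPG, which runs towards it on the opposite strand.

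COL18A1-AS1 followed with a ratio of 0.277. It is an antisense RNA gene on chromosome 21 (45419716 to 45425070, minus strand) inside COL18A1, the gene of the collagen chain that gives rise to endostatin. Its mock libraries had 38.4, 52.6 and 58.7 CPM (lowest, median, highest) and its arsenite libraries 10.2, 13.9 and 15.9 CPM. GPR146, a G protein-coupled receptor gene on chromosome 7 (1044576 to 1059261, plus strand), went from 53.0, 63.1 and 71.5 CPM to 11.96, 18.9 and 20.5 CPM, a ratio of 0.284. Neither row had overlapping treatments. Ratios within a line were 0.229 to 0.379 for COL18A1-AS1 and 0.268 to 0.305 for GPR146.

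The promoter windows of these 3 rows are shown because they fell furthest among members with a window in the RefSeq table (GRCh38.p14, from 250 bases before to 50 after the start). Capitals mark a CCAAT box, a GC box with the letters GGGCGG, or an E-box with the letters CACGTG, on either strand. The PEPD window is chr19:33521742-33522041 on the minus strand, with 6 GC boxes, 2 CCAAT boxes and 1 E-box. The COL18A1-AS1 window is chr21:45425021-45425320 on the minus strand, with 1 GC box and 1 CCAAT box. The GPR146 window is chr7:1044296-1044595 on the plus strand, with 7 GC boxes and 1 E-box.
PEPD: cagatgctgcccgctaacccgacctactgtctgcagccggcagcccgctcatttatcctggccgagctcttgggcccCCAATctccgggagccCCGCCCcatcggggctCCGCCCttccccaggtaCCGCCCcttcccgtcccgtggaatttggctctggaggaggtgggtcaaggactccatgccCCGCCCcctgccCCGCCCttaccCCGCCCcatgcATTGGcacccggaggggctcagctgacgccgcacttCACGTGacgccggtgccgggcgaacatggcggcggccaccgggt
COL18A1-AS1: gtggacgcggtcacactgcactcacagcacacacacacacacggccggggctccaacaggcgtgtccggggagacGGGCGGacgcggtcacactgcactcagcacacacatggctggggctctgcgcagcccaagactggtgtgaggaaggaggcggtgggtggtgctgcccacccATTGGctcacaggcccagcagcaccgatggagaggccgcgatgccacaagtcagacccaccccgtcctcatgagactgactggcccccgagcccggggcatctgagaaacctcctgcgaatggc
GPR146: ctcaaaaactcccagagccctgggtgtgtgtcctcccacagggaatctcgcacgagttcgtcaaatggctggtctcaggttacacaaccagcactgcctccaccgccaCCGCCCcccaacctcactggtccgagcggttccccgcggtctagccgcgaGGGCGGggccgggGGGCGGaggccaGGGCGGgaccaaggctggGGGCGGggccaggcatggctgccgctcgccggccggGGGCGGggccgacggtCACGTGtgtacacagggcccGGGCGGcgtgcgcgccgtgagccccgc

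Of the 84 members, 30 matched a promoter window, out of 27305 windows in the table. A GC box was in 12 of the 30 (40%) and in 44.59% of all windows, a CCAAT box in 6 (20%) and 35.7%, and an E-box in 3 (10%) and 7.435%. The TATA box TATAAA was in 3 (10%) against 11.95%, the AP-1 letters TGACTCA in 2 (6.667%) against 4.922%, and the heat shock element core GAANNTTC in 2 (6.667%) against 6.867%. Motifs were counted on both strands and do not overlap one another in letters. A match is a description of letters and shows no binding. No motif was present in most member windows, and PVR, the next lowest ratio with a window, held none of the 6.

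By gene type, 34 members are protein coding in GENCODE release 29 (40.5%, against 49.0% of well-counted rows), 23 are antisense RNAs (27.4% against 28.8%), 10 are pseudogenes (11.9% against 7.05%), 7 are other long noncoding or unclassified genes (8.33% against 8.91%), and 10 have no model in that release (11.9% against 5.17%). Coding rows were thus a smaller share, and pseudogenes and rows without a model a larger share, of the members than of well-counted rows, with no test of the difference. DIP2C-AS1 is counted as coding wherever rows are split by type, because release 29 holds it as the coding gene PRR26. Exonic length had a median of 2336.5 bases in the 74 members with a model and 3048 bases in well-counted rows, and the median number of exons was 4 against 6. With members less than 100000 bases apart counted as 1 locus, the 74 rows fall into 65 loci, of which 7 hold 16 rows.

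Among coding rows, cell-surface and secreted proteins included 2 gel-forming mucins of a cluster on chromosome 11. MUC6, a mucin of the stomach (chr11:1012821-1036706, minus strand), had mock libraries at 50.3, 58.1 and 74.3 CPM (lowest, median, highest) and arsenite libraries at 11.1, 16.5 and 21.2 CPM, a ratio of 0.285. MUC5B, a mucin of the airways (chr11:1223066-1262172, plus strand), went from 46.9, 64.2 and 93.7 CPM to 17.0, 21.2 and 29.4 CPM, a ratio of 0.325. The treatments did not overlap in either mucin. CDHR5, a cadherin-family protein of the brush border (chr11:616565-626078, minus strand), was among the best-counted members and went from 155, 175 and 198 CPM to 48.9, 54.4 and 60.9 CPM. By line (NES, NLS, G3BP1) its ratios were 0.288, 0.321 and 0.330.

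PVR, the nectin-family adhesion molecule known as the poliovirus receptor, had 27.4, 33.7 and 39.0 CPM in mock and 6.16, 9.82 and 16.5 CPM in arsenite libraries (lowest, median, highest), a ratio of 0.324. It shares exon sequence on its own strand with CEACAM19, so counts may be split between them. CEACAM1, an adhesion molecule of the carcinoembryonic antigen family, had 45.9, 86.8 and 103 CPM in mock and 22.1, 33.6 and 50.8 CPM in arsenite libraries, with overlap between the treatments. Within a line its ratios were 0.380, 0.485 and 0.465 in NES, NLS and G3BP1. The receptor row GPER1, a membrane estrogen receptor that lies near GPR146 within the gene C7orf50 on the other strand, had a ratio of 0.348.

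Other coding rows are regulators of transcription and signalling. IRF7, the interferon regulatory factor that drives type I interferon genes, is the neighbour of CDHR5 on chromosome 11 (612553 to 615999, minus strand). Its mock libraries had 74.6, 96.6 and 114 CPM and its arsenite libraries 25.1, 31.0 and 39.7 CPM (lowest, median, highest), a ratio of 0.329 with no overlap. ZNF750, a zinc finger factor of epidermal differentiation, went from 19.1, 38.3 and 42.2 CPM to 8.36, 10.8 and 15.7 CPM, a ratio of 0.327. ZNF154, a KRAB-type zinc finger gene (chr19:57697367-57709194, minus strand), was the second most counted member, with 399, 419 and 448 CPM in mock and 180.3, 191 and 223 CPM in arsenite libraries. Its fall was shallower (ratio 0.473) and even among lines (0.470, 0.512 and 0.440 in NES, NLS and G3BP1). CHUK, a catalytic subunit of the IκB kinase, had a ratio of 0.409, and SMARCD3, a subunit of BAF chromatin remodellers, one of 0.491.

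Peptidases and motor proteins were also present. DPP8, a cytosolic dipeptidyl peptidase, had 122, 125 and 156 CPM in mock and 53.0, 59.5 and 64.3 CPM in arsenite libraries (lowest, median, highest), a ratio of 0.458. RNPEPL1, an aminopeptidase-like gene, had a ratio of 0.436. MYO1F, a class I myosin, had 99.0, 137 and 202 CPM in mock and 47.4, 82.2 and 91.0 CPM in arsenite libraries, a ratio of 0.494, and its treatments came close without overlapping. MYL9, a myosin regulatory light chain, had a ratio of 0.396. The remaining coding rows not described elsewhere, which were UCKL1, LINGO3, GDAP1L1, ITIH6, ERVFRD-1 (the envelope gene of syncytin-2), C17orf78, BTBD6, RTEL1 and RTEL1-TNFRSF6B, had ratios of 0.390 to 0.494. RTEL1 (0.405), a telomere helicase gene, and RTEL1-TNFRSF6B (0.489), its readthrough form, share exons, so how their counts are divided is uncertain.

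SPDYE1, SPDYE2 and SPDYE8 belong to the Speedy/RINGO family of cell-cycle regulators, which exists as many near-identical copies on chromosome 7. SPDYE2 had 630.2, 812 and 843 CPM in mock and 305, 407 and 416 CPM in arsenite libraries (lowest, median, highest), and alone held 11.4% of the members' mock counts. SPDYE1 went from 220.5, 288 and 318 CPM to 110.3, 137 and 173 CPM. The 9 other well-counted rows of the family had ratios from 0.5002 to 0.674, where the 10th percentile over all well-counted rows was 0.673. These values are a description with no test. Reads of these copies may be divided among them, and the family rows are not independent measurements.

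Antisense and other noncoding rows included several of the best-counted members. LIPC-AS1 (chr15:58434890-58498735, minus strand) lies opposite LIPC, the gene of hepatic lipase. It had 216, 255 and 263 CPM in mock and 94.0, 117 and 122 CPM in arsenite libraries (lowest, median, highest), a ratio of 0.450. ENSG00000263089, a single-exon row opposite AKAP1 (chr17:57092145-57096425, minus strand), went from 186, 225 and 269 CPM to 96.5, 107 and 119.8 CPM, and ENSG00000260279, opposite ANKRD11 (chr16:89296128-89298317, plus strand), from 132, 160.1 and 179 CPM to 61.5, 71.0 and 86.9 CPM. All 3 had treatments that did not overlap. LINC00174 went from 85.9, 160.5 and 187 CPM to 38.9, 59.97 and 80.8 CPM and shares exon sequence with 5 other annotated genes.

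The 23 antisense members had ratios of 0.277 to 0.497, the 10 pseudogenes 0.430 to 0.497, and the 7 other noncoding rows 0.313 to 0.444. ENSG00000235494 had the lowest ratio of the last class, going from 39.98, 60.1 and 78.8 CPM (lowest, median, highest) to 10.95, 18.8 and 25.04 CPM. Pseudogenes such as NCLP1 (of nucleolin, ratio 0.430), ODCP (of ornithine decarboxylase, 0.457), SF3A3P1 (0.441) and HSPE1P27 (0.482) can share reads with the parent gene. The 10 rows without a model ran from 0.3002 in ENSG00000289268 to 0.497 in ENSG00000286004. Of these, ENSG00000289268 had 21.5, 39.5 and 49.5 CPM in mock and 4.87, 13.5 and 14.4 CPM in arsenite libraries, and ENSG00000286708 had 126, 136 and 155 CPM and 41.0, 54.4 and 63.0 CPM.

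What most members have in common is their place opposite an intron. For each row the annotated exons were compared with genes on the other strand, and a row was called intron-facing when at least 90% of its exonic bases lay inside such a gene and less than 20% lay opposite its exons. These limits were set after the members' annotation was seen. By them 48 of the 74 members with a model faced an intron (64.9%), against 828 of 4545 well-counted rows with a model (18.2%). Another 3 members (4.05%, against 33.9%) lay opposite exons, 11 (14.9%, against 34.8%) were covered in part, and 12 (16.2%, against 13.1%) had no gene opposite any exonic base. This last class is called no gene on the other strand below. Genes opposite only an intron of the row itself were not looked for. By gene type, 21 of 23 antisense members faced an intron (91.3%) against 23.0% of well-counted antisense rows, and 14 of 34 coding members (41.2%) against 10.2%. Of the pseudogenes 7 of 10 did, against a background share that was itself high, at 53.8%. These shares are descriptions with no test. Other definitions of facing gave 55.4% of members against 9.75% (no base opposite an exon), 66.2% against 24.5% (under 50% opposite an exon) and 68.9% against 24.5% (at least 50% inside the gene).

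The difference was present in each range of counts. Among rows with a mock count sum from 240 to under 480, 65.4% of members and 23.7% of well-counted rows faced an intron, and the shares were 63.6% and 18.03% for sums from 480 to under 960, and 63.6% and 11.2% for sums of 960 or more. Intron-facing rows that are not members were also lower after arsenite. Of these 780 rows, 45.5% were called lower and 7.44% higher by edgeR (adjusted p under 0.05), with a median ratio of 0.831, where 25.9% of all well-counted rows were called lower and 21.7% higher. Non-member rows opposite exons had a median ratio of 0.985 with 19.5% called lower, and those covered in part 1.02 with 16.3%. Non-members with no gene on the other strand had a median of 0.940, with 30.2% called lower and 25.9% higher. Among the 29 well-counted rows whose level at least doubled, 1 faced an intron and 14 had no gene on the other strand.

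**Figure D3:**
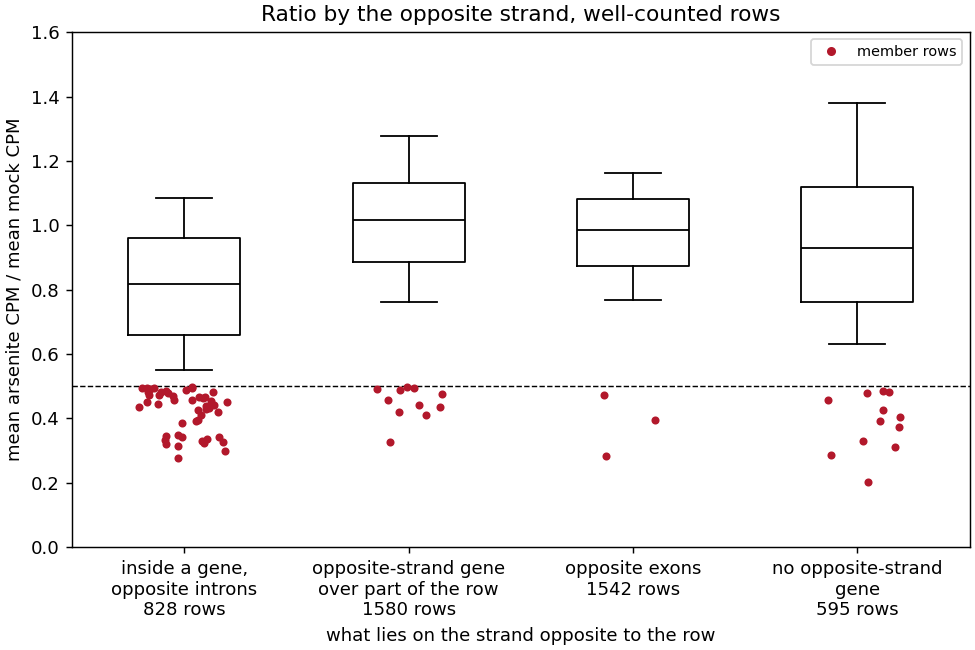
Boxes give the quartiles and median of the ratio of mean arsenite to mean mock CPM for well-counted rows in 4 classes of opposite-strand annotation, with whiskers at the 10th and 90th percentiles, and red points are the members, spread sideways for legibility. The intron-facing class has the lowest median (0.817) and holds 48 of the members, which lie below the dashed line at 0.5 by the rule.

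The 48 intron-facing members lay opposite 42 genes, of which 4 faced more than 1 member. SHANK2, which encodes a scaffold of excitatory synapses and spans 784722 bases, faced SHANK2-AS1, SHANK2-AS2, SHANK2-AS3 and ENSG00000279459. SHANK2-AS1 (chr11:70631094-70635490, plus strand) had 118, 147 and 162 CPM in mock and 41.7, 47.6 and 53.7 CPM in arsenite libraries (lowest, median, highest), a ratio of 0.330. SHANK2-AS2 went from 33.8, 37.4 and 44.9 CPM to 8.36, 11.9 and 16.4 CPM (0.320), while SHANK2-AS3 and ENSG00000279459 had ratios of 0.435 and 0.427. The SHANK2 row itself had 3 to 9 counts per library, too few for a fold change. DIP2C faced DIP2C-AS1 (0.333) and ENSG00000225140 (0.299), ZMYND8, a chromatin reader, faced ENSG00000231119 (0.481) and ENSG00000267882 (0.409), and NSRP1, a splicing regulator, faced ENSG00000265739 (0.386) and ENSG00000266987 (0.434).

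The members at DIP2C show how close rows of 1 locus could be. DIP2C-AS1 had 108, 131 and 146 CPM in mock and 35.3, 42.6 and 51.5 CPM in arsenite libraries (lowest, median, highest). ENSG00000225140 had 31.1, 38.6 and 56.7 CPM and 9.19, 12.8 and 14.4 CPM. Rows opposite 1 gene may carry pieces of 1 transcript and are not independent.

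Well-counted rows that face an intron of the same 42 genes but are not members numbered 11, opposite 9 genes. All 11 were called lower after arsenite by edgeR and none higher, where 45.5% of the non-member intron-facing rows were called lower. Their ratios ran from 0.523 to 0.782 with a median of 0.650. ZNF671, next to ZNF154 and opposite the same gene model, had the lowest of these (0.523, log2 fold change −0.88, SE 0.0721, edgeR adjusted p = 8.39e-20). RERE-AS1, opposite RERE beside the member ENSG00000226545, had a ratio of 0.573 (log2 fold change −0.74, SE 0.140, edgeR adjusted p = 7.07e-06). LIPE, the gene of hormone-sensitive lipase, opposite LIPE-AS1 beside CEACAM1, had one of 0.641 (log2 fold change −0.60, SE 0.0832, edgeR adjusted p = 2.45e-09). Opposite RPTOR, the scaffold of the mTORC1 kinase complex, ENSG00000262313 (0.650) and ENSG00000262662 (0.704) stood beside the member ENSG00000262833 (0.451). Loci with members were picked for at least 1 low row, so this describes how their neighbours behaved and supports no wider statement.

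Distance into the opposite gene was examined over all intron-facing rows. Over the 828 intron-facing well-counted rows, Spearman's rho between the distance from the opposite gene's 5′ end and the ratio was −0.0074, across rows that share libraries. Members made up 7 of 99 rows under 10 kb, 21 of 264 rows from 10 to 40 kb, 11 of 324 rows from 40 to 160 kb and 9 of 141 rows beyond. The opposite gene was protein coding for 42 of the 48 members (87.5%, against 82.9% of intron-facing well-counted rows) and had a median length of 147676 bases (against 122774).

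**Figure D4:**
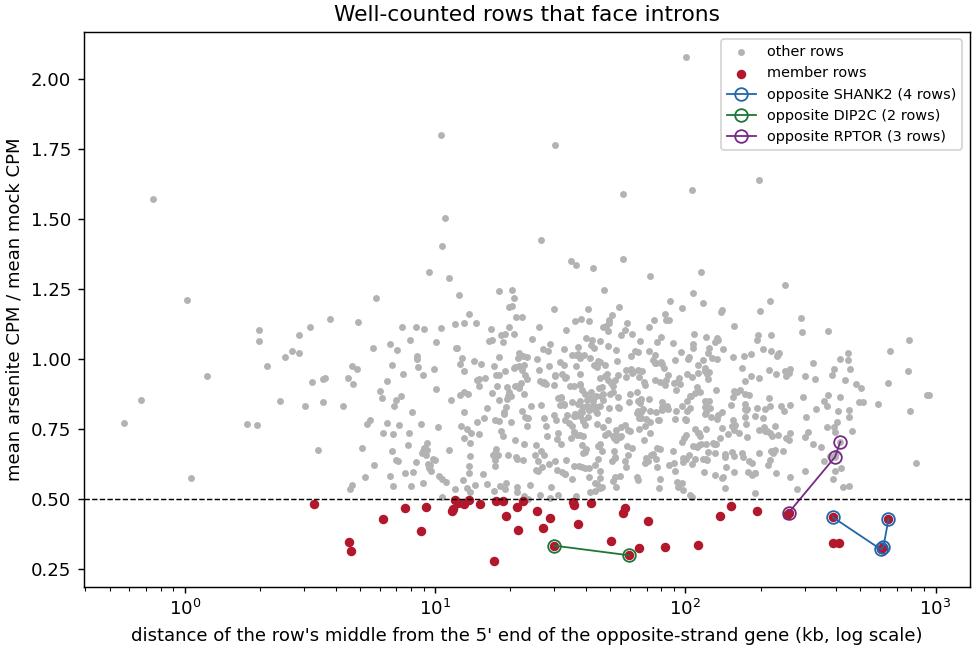
Each point is an intron-facing well-counted row, placed by the distance in kb from the 5′ end of the opposite-strand gene to the middle of the row (log scale; rows at or before that end are left out) and by its ratio of mean arsenite to mean mock CPM. Members are red, and joined circles mark the rows opposite SHANK2, DIP2C and RPTOR, whose ratios lie between 0.299 and 0.704 at distances from 29904 to 648496 bases.

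The rows of the opposite genes themselves were called in both directions. Counting every class of overlap, 55 rows of opposite genes were in the table, and 29 passed the filter on low counts. Of these 6 were called lower and 4 higher by edgeR, with a median log2 fold change of −0.05, where 18.6% of all tested rows were called lower and 19.4% higher. The largest falls were in ANKRD11 (log2 fold change −0.74, SE 0.103, edgeR adjusted p = 2.14e-09), a chromatin regulator opposite ENSG00000260279, and in UCKL1-AS1 (−0.53, SE 0.0981, adjusted p = 4.45e-06), opposite UCKL1. COL18A1 also fell (−0.44, SE 0.112, edgeR adjusted p = 7.75e-04). In contrast LDLRAD4, opposite ENSG00000267529, rose by 0.75 (SE 0.156, edgeR adjusted p = 3.87e-05), and LIPE-AS1, opposite CEACAM1, rose by 0.27 (SE 0.0573, adjusted p = 4.88e-05). Over all 55 rows, those that did not pass included, the median mock sum was 44 counts against 395.5 for the members. Of the 55, 14 reached the mock count minimum. The rows named here were better counted, with mock sums of 613 for ANKRD11, 677 for UCKL1-AS1, 486 for COL18A1, 147 for LDLRAD4 and 1734 for LIPE-AS1.

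Among the 12 members with no gene on the other strand, 6 lay within 5000 bases past the end of an opposite-strand gene (50%), and so did 278 of 595 such well-counted rows (46.7%). These were IRF7 (331 bases) and CDHR5 (4343 bases) past PHRF1, MUC6 (576 bases) past AP2A2, RAB26 (632 bases) past SNHG19, RTEL1 (2389 bases) past ARFRP1, and PEPD past CEBPG as given above. The share of members was thus near that of all such rows.

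Whether the fall depended on the line was tested as a difference between lines, which the rule did not use. No member was called by edgeR in the joint test over lines, where 0.183% of all rows and 0.334% of well-counted rows were. None was called for G3BP1 against the mean of NES and NLS (0.153% and 0.25%), and none for NLS against NES (0.0153% and 0.0417%). At an unadjusted p under 0.05 there were 7, 5 and 8 members in these tests, where 8.37%, 8.55% and 6.50% of all rows were, and DESeq2 called 0 in each, with 3, 2 and 1 unadjusted. The lowest adjusted p was that of ENSG00000267529, with ratios of 0.271, 0.382 and 0.748 for NES, NLS and G3BP1 cells (difference of G3BP1 1.23 on the log2 scale, SE 0.352, edgeR adjusted p = 0.138). This difference did not pass the threshold, and with 2 libraries per group its SE was wide.

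Whatever the other lines did, the ratio was at most 0.5 in NES for 72 members, in NLS for 54 and in G3BP1 for 71. The shares of all well-counted rows were 2.61%, 1.92% and 2.61%. The rule used these same values, so members exceed those shares by choice. In all 3 lines the ratio was at most 0.5 for 42 members. These are all such well-counted rows, because a row at most 0.5 in each line meets the rule by arithmetic. Median ratios of the members were 0.422, 0.467 and 0.419. Leaving out VCPKMT and F11R, NLS had the highest of the 3 ratios in 49 of 82 rows and the lowest in 11. MYO1F is an example, with ratios of 0.440, 0.621 and 0.439 in NES, NLS and G3BP1. The tests above called none of these rows. The order of the 3 ratios was not counted over all well-counted rows, so it is not read as particular to the members.

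Mock levels differed between lines for some members. In G3BP1 mock libraries, 19 of the 84 rows differed from the mean of NES and NLS mock by edgeR, 9 higher and 10 lower, where 18.9% of all rows and 32.9% of well-counted rows did. Higher calls were 10.6% of all rows and 19.9% of well-counted rows, and lower calls 8.28% and 13.1%. DESeq2 called 9 of the 19, 5 higher and 4 lower, and 9 were called when the replicate 2 library of G3BP1 mock was left out. Without F11R and VCPKMT, which passed the count minimum through NES alone, edgeR called 18 of 82, 9 in each direction. The members' share (22.6%) was below that of well-counted rows. Members had lower counts, with 60 of the 84 at mock sums from 240 to under 480, where 1966 of the 4793 well-counted rows were. Shares were not compared at like counts, so the lower share is not read as particular to the members.

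TP53INP1, a p53-inducible stress protein gene, had the lowest adjusted p of the members in this comparison. The row had a mock sum of 304 counts against the minimum of 240, with 71 and 76 of them in the G3BP1 libraries. The G3BP1 level thus helped the row to pass the minimum. The choice of rows therefore favoured a higher level in G3BP1, and the p-value below does not allow for that. Its mock libraries had 39.0 and 31.5 CPM in NES cells, 18.3 and 31.4 CPM in NLS cells, and 65.1 and 66.0 CPM in G3BP1 cells. It was higher in G3BP1 by 1.23 on the log2 scale (SE 0.191, edgeR adjusted p = 4.35e-08), and arsenite libraries kept that order, with 18.8 and 12.8 CPM, 10.6 and 15.1 CPM, and 41.0 and 24.0 CPM. RAB26, a small GTPase of vesicle traffic, was also higher in G3BP1 mock, at 74.3 and 84.2 CPM against 47.9 and 32.2 CPM in NES and 40.6 and 45.5 CPM in NLS (log2 difference 1.02, SE 0.170, edgeR adjusted p = 4.35e-07). After arsenite its 3 lines met at 17.3 to 24.0 CPM, so that its ratio was 0.243 in G3BP1 and 0.471 and 0.516 in NES and NLS. This difference in its fall was not called (G3BP1 against NES and NLS, edgeR adjusted p = 0.198).

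GSTM3, a glutathione transferase, was lower in G3BP1 mock, at 37.6 and 41.7 CPM against 87.6 and 101 CPM in NES and 82.1 and 83.1 CPM in NLS (log2 difference −1.06, SE 0.174, edgeR adjusted p = 2.52e-07). It fell in each line, and the overlap of its treatments comes from the level of the G3BP1 mock libraries, which lay among the arsenite libraries of the other lines. ENSG00000263089 was higher in G3BP1 mock by 0.48 (SE 0.0845, edgeR adjusted p = 2.12e-06), at 269 and 268 CPM. PEPD was higher by 0.57 (SE 0.186, edgeR adjusted p = 0.019), a call lost with DESeq2, with scaling by library totals alone, and without replicate 1 or 2 of G3BP1 mock, replicate 2 of NES mock or replicate 1 of NLS mock.

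Between NLS and NES mock libraries 6 members differed by edgeR, all lower in NLS, where 6.92% of all rows and 12.1% of well-counted rows differed and 3.85% and 8.07% were lower. Among the 6 are VCPKMT and F11R, which passed the mock count minimum through NES alone, so that the choice of rows fixed their direction. Without them 4 of 82 members were called, and DESeq2 called MYO1F alone of these 4. MYO1F had 197 and 202 CPM in NES mock libraries, 140 and 131 CPM in those of NLS, and 133 and 99.0 CPM in those of G3BP1 (NLS against NES, log2 difference −0.60, SE 0.114, edgeR adjusted p = 2.27e-05). ENSG00000235494 had 78.8 and 68.3 CPM in NES against 42.2 and 39.98 CPM in NLS (log2 difference −0.88, SE 0.2003, edgeR adjusted p = 6.98e-04). The difference was not called with DESeq2.

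VCPKMT, a methyltransferase that modifies the ATPase VCP, and F11R, the junctional adhesion molecule A, were counted almost only in the NES line. VCPKMT had 163 and 154 counts in the NES mock libraries, 0 and 0 in those of NLS, 1 and 0 in those of G3BP1, and 85 and 64 counts after arsenite in NES. NES mock was at least 50.2-fold higher than the floor of 3 counts per library in NLS and at least 44.5-fold higher than that in G3BP1. F11R had 138 and 121 counts in the NES mock libraries, 1 and 2 in those of NLS, 0 and 0 in those of G3BP1, and 51 and 43 counts after arsenite in NES. Its NES level was at least 41.0-fold higher than the NLS floor and at least 36.3-fold higher than the G3BP1 floor. These 2 rows thus entered the group through 1 line, where their ratios were 0.478 and 0.371, and without them it has 82 rows.

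**Figure D5:**
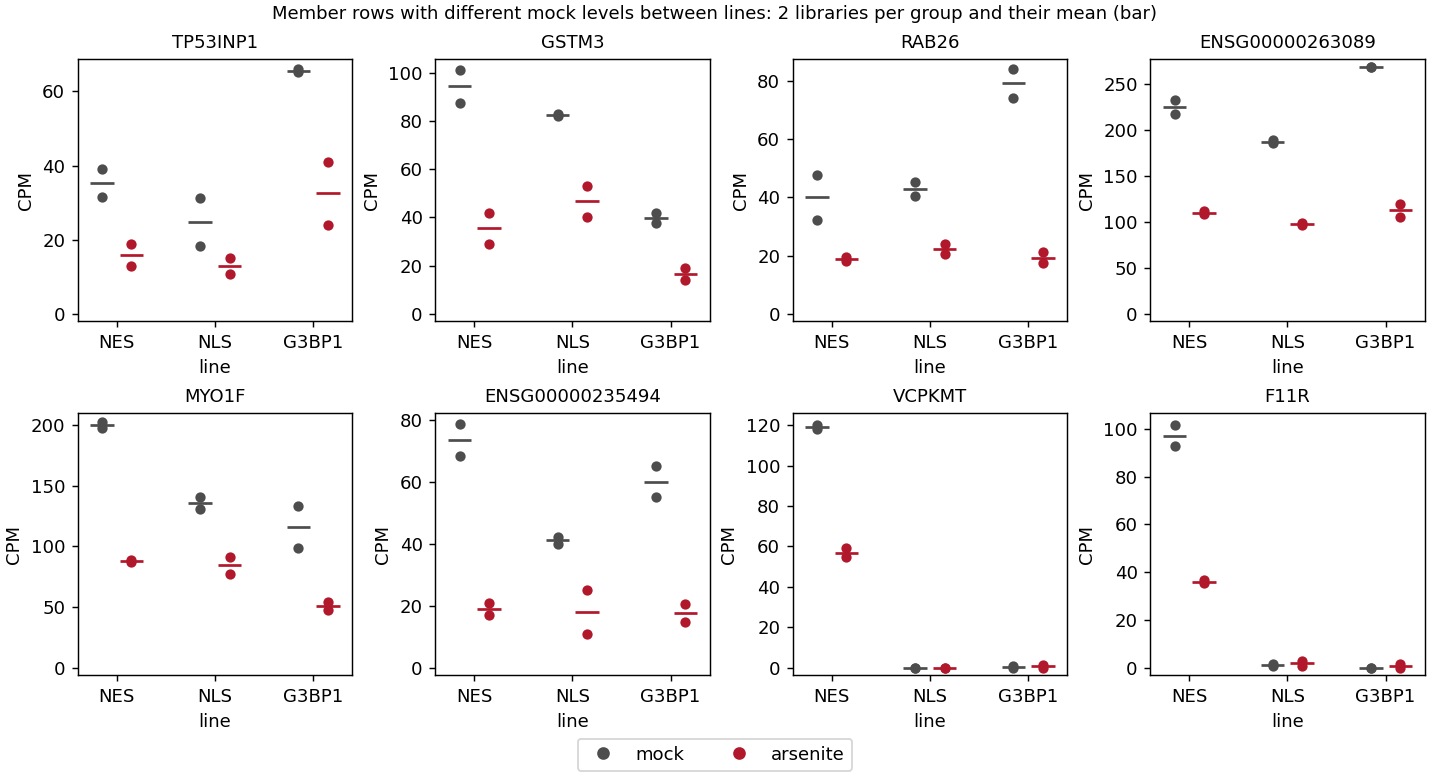
Each panel is 1 member row named in a mock comparison, with CPM on the vertical axis, the 3 lines on the horizontal axis, and points for the 2 mock (grey) and 2 arsenite (red) libraries of a line with a bar at their mean. TP53INP1, RAB26 and ENSG00000263089 have higher mock levels in G3BP1, GSTM3 has lower ones, and VCPKMT and F11R are near 0 outside NES.

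Lists were chosen by the function of the named genes, and their rows were tested by edgeR for the average arsenite effect. As above, the counts of a row may come from the named gene or from RNA of the opposite strand. Of all tested rows 19.4% were called higher and 18.6% lower, and with so few list genes tested the counts are read against these shares. Of 17 genes of proline and collagen peptide metabolism 4 passed the filter. One of them is PEPD, whose fall chose it and is not counted as a call. Of the other 3, 2 were called higher and 0 lower. PRODH, the mitochondrial enzyme that oxidizes proline, had 9.55, 14.9 and 21.2 CPM in mock and 13.4, 29.5 and 34.9 CPM in arsenite libraries (lowest, median, highest), and rose by 0.89 (SE 0.173, edgeR adjusted p = 1.09e-05). PYCR1, which makes proline, rose by 0.73 (SE 0.282, edgeR adjusted p = 0.0323), a call DESeq2 did not make (adjusted p = 0.108). The list was drawn up because PEPD was known to fall, and the median log2 fold change of its other 3 rows was 0.73.

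Of 26 genes of RNA polymerase II pausing, elongation and termination 16 passed, with 1 called higher and 2 lower and a median of −0.04. HEXIM1, an inhibitor of the elongation kinase P-TEFb, went from 71.5, 85.9 and 100.1 CPM to 39.4, 63.3 and 77.7 CPM (lowest, median, highest) and fell by 0.50 on the log2 scale (SE 0.0981, edgeR adjusted p = 1.43e-05). INTS11, the nuclease of the Integrator complex, fell by 0.22 (SE 0.0723, edgeR adjusted p = 0.0101), and NELFCD, a subunit of the pausing factor NELF, rose by 0.39 (SE 0.134, edgeR adjusted p = 0.0150). DESeq2 called HEXIM1 alone of these 3.

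Of 21 genes of the nuclear exosome and its adaptors, which degrade nuclear RNA, 11 passed, 3 were called higher and none lower, with a median of 0.16. EXOSC8, a ring subunit, rose by 0.20 (SE 0.0538, edgeR adjusted p = 0.00199) and was the best counted, and EXOSC5 (0.48, adjusted p = 0.0436) and EXOSC10 (0.57, adjusted p = 0.0446) were not called by DESeq2. Of 33 short-lived regulator mRNAs such as MYC and MCL1, 13 passed, with a median of −0.01. None was called by edgeR or DESeq2, with 1 and 0 at an unadjusted p under 0.05, and 18 of the 33 had fewer than 10 counts in every library. PEPD was the only member in any of the 4 lists.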

How the data were processed

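RNA of 12 libraries (2 per group) was measured by sequencing. The authors deposited raw counts per gene as 1 table, whole numbers that differ in total between columns. The submitters' processing notes name Trim Galore, Subread, featureCounts, edgeR and GRCh38.p13, with no settings. The strand setting is not given in the sources used here. The table has 4 further columns without a matching label, which were left out of every step.

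CPM used column totals. Tests used edgeR 4.0.16 (R 4.3.3) on the counts as deposited, with TMM, filterByExpr (minimum count 10, total 15), the quasi-likelihood F test and Benjamini-Hochberg adjustment over 13108 rows, called at an adjusted p under 0.05. Contrasts between lines came from a model with 1 mean per group (6 residual degrees of freedom), the average arsenite effect from line plus treatment (8). SE is the log2 fold change over the root of F. The steps were tested on simulated data.

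Positions, types and overlaps are from GENCODE release 29 (GRCh38). The members and gene lists were chosen with earlier results of these data known. Named rows were the 12 most counted members, the 12 lowest ratios, 4 rows by adjusted p in each mock comparison, 4 on each side of the limit, and rows called in the lists. Others were chosen after their values were seen. Replicates of every group differed beyond counting noise (chi-square over degrees of freedom 1.11 to 1.39), so none was counted as 1 library. Floors reflect counting error alone, because PCR copies are not marked by molecular identifiers. Alternatives were other scaling, filters, DESeq2 1.42.0, a replicate block, other limits of the rule, and leaving out each library.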

Additional observations from a re-analysis of the deposited data

Results flagged for a closer look

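In 62 groups of 6 libraries (31 named rows, mock and arsenite), 4 held 1 library set apart from the other 5 by more than 0.625 of the whole range, where about 1 in 20 groups would be flagged without any cause. LIPC-AS1 had 216 CPM in replicate 1 of NES mock against 252 to 263 CPM in the other mock libraries. DPP8 had 156 CPM in replicate 2 of NES mock against 122 to 132 CPM. MUC6 had 74.3 CPM in replicate 1 of G3BP1 mock against 50.3 to 59.1 CPM. SPDYE8 had 61.4 CPM in replicate 1 of NLS mock against 23.8 to 37.6 CPM, and without that library its ratio of 0.497 would be 0.580, outside the limit. The 4 are different mock libraries, and the other 3 rows keep a ratio of at most 0.5 without them.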

How the results depend on the processing

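The number of rows that meet the rule followed its limits, with 206 rows at a mock count sum of at least 120, 24 at 480, 28 at a ratio of at most 0.4, 253 at 0.6, and 42 when each line had to be at most 0.5. Scaling by TMM or DESeq2 size factors left 69 and 66 rows, all among the 84, and medians gave 97, of which 74 were among them. Leaving out 1 library gave 64 to 99 rows. DESeq2 called 9 members in the G3BP1 mock comparison (19 with edgeR), 3 in the NLS against NES mock comparison (6) and 2 higher list genes (6). The cause was not tested. Leaving out 1 library gave 9 to 20, 4 to 6 and 4 to 7 calls, and the lowest count of the first, 9, came without replicate 2 of G3BP1 mock. No member was called for line dependence under any alternative run. F11R had a log2 fold change after arsenite of −0.41 with DESeq2 and −1.27 with edgeR. DESeq2 also did not call ENSG00000235494 in the NLS against NES mock comparison. Further calls lost are given beside their values, which are PEPD in the G3BP1 mock comparison, and PYCR1, INTS11, NELFCD, EXOSC5 and EXOSC10 with DESeq2. None of the values recomputed under the alternatives reversed.

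Same-numbered libraries showed no shared deviation (Pearson's r over 6395 rows was −0.0598, −0.0170 and 0.0156 for NES, NLS and G3BP1 cells). Replicates differed little beyond counting noise (chi-square over degrees of freedom 1.11 to 1.39), so this check cannot exclude a pairing. With the replicate number as a block 19 members were called in the G3BP1 mock comparison, 7 in NLS against NES, and 0 in each test of line dependence, and lists had 6 higher and 3 lower calls, PEPD among the latter.

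At these totals 3 counts are 2.05 to 2.75 CPM, and 26 of the 55 opposite-strand gene rows did not pass the filter on low counts.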
